A study of Mus musculus with 8 samples.

Results

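Libraries from mice given α-ketoglutarate (AKG) were compared with libraries from mice not given it, across mice with and without an α-synuclein vector. RNA came from the substantia nigra of male C57BL/6 mice, a midbrain nucleus whose dopamine neurons die in Parkinson's disease. The 8 libraries form 4 groups of 2: controls (WT), mice given an adeno-associated virus (AAV) encoding α-synuclein (α-Syn), mice given AKG (AKG), and mice given both (α-Syn_AKG). The 4 libraries of the AKG and α-Syn_AKG groups, of 8 in all, make up the side with AKG, chosen by their labels, and the 4 libraries of the WT and α-Syn groups make up the side without. The series title places AKG in the diet. The sources used here do not give its dose and duration, the age of the mice, or the promoter and serotype of the vector. The labels do not say whether the WT and AKG mice received an empty vector, nor whether the 2 libraries of a group are from different animals. The p-values therefore reflect only the spread between these samples, which can be technical.

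AKG is an intermediate of the tricarboxylic acid (TCA) cycle, made by isocitrate dehydrogenases and glutamate dehydrogenase and used by the 2-oxoglutarate dehydrogenase complex. It is also a co-substrate of a large family of iron-dependent dioxygenases, among them the TET DNA demethylases, histone demethylases and the prolyl hydroxylases that sense oxygen. In other systems AKG supplementation has been linked to mTOR signalling and autophagy, the route by which cells clear protein aggregates such as those of α-synuclein. Dopamine neurons of the substantia nigra make dopamine with Th and Ddc, load it into vesicles with Slc18a2 and take it back up with Slc6a3.

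The libraries held between 16544190 and 19125423 reads in genes. Levels are the deposited FPKM values (fragments divided by gene length and by library size), and the 13716 of 54532 genes with a mean FPKM of 1 or more were tested. WT library 1 stood apart: across genes its mean Spearman correlation with the other libraries was 0.926, against 0.971 to 0.975 for each of the others. Where leaving it out turned the sign of a difference or moved it by over 1.5 times, the value without it is given too. Th, a defining marker of the dopamine neurons of this region, was detected in all 8 libraries at 10.4 to 38.8 FPKM, whereas Slc6a3 ranged from 0.615 to 28.5 FPKM.

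No gene passed the test for a difference with AKG. Of 13716 genes, 0 were higher (0%) and 0 were lower (0%) at an adjusted p under 0.05 with limma, and the smallest adjusted p was 0.78. The fit used log2(FPKM + 1) with the vector as a covariate and Benjamini-Hochberg adjustment. Its residual spread, and so each SE of an average difference, includes disagreement between the 2 vector levels. With 1 mean per group limma also called 0 genes, and the smallest adjusted p was 0.373. On the reads recovered from the FPKM, limma's voom also called 0 genes. At an unadjusted p under 0.05 there were 265 genes higher (1.93%) and 295 lower (2.15%), 560 in all (4.08%), where a threshold of 5% lets through 686 of 13716 tests by chance. Without WT library 1 the count at the adjusted threshold was again 0. Without AKG library 1 or 2 the genes higher at an unadjusted p under 0.05 numbered 127 and 91, and without α-Syn_AKG library 2 they numbered 652. The genes lower numbered 158, 133 and 594 in the same fits. A description by sample was also counted, and it is not stricter than the unadjusted p. In 391 genes (2.85%) both AKG libraries lay above both WT libraries and both α-Syn_AKG libraries above both α-Syn libraries. In 442 genes (3.22%) they lay below. Such genes are called separated at both vector levels from here on. If the libraries within each vector level were in random order, about these shares of genes would be separated. In 227 genes (1.66%) all 4 libraries with AKG lay above all 4 without, and in 260 (1.9%) they all lay below.

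The differences with AKG in mice without the vector had little in common with those in mice with it. AKG against WT and α-Syn_AKG against α-Syn share no library, and across the 13716 genes their log2 differences had a Spearman correlation of -0.127, or -0.0781 without WT library 1. The sign was the same for 44.4% of genes. The median size of the log2 difference was 0.198 for AKG minus WT and 0.0776 for α-Syn_AKG minus α-Syn. These are descriptions across genes, which are not independent replicates. The interaction of AKG and vector, which tests whether the 2 differences are unequal, called 0 genes in limma (998 genes, 7.28%, at an unadjusted p under 0.05). Leaving out WT library 2, so that WT library 1 alone stood for the controls, turned this count into 1369, and leaving out any other single library left it at 0. The vector term of the same additive fit also called 0 genes, with 336 (2.45%) at an unadjusted p under 0.05.

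**Figure D1:**
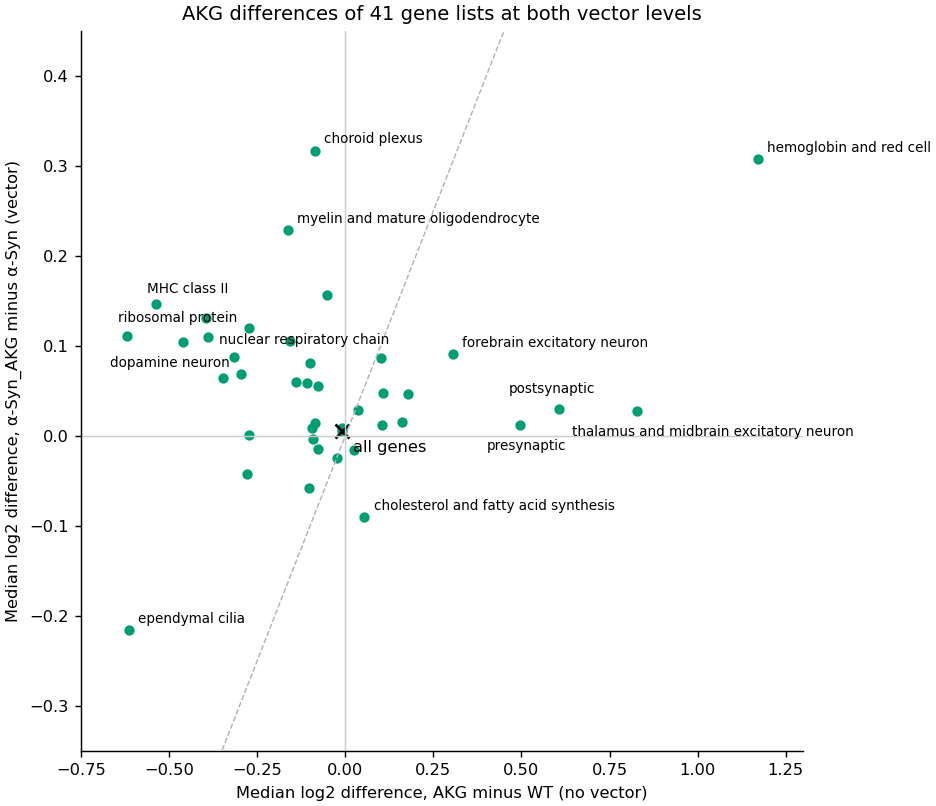
Median log2(FPKM + 1) difference of 41 gene lists, AKG minus WT on the horizontal axis and α-Syn_AKG minus α-Syn on the vertical axis; each point is 1 list, the cross is the median of all 13716 genes and the dashed line marks equal differences. Lists spread from -0.62 for ribosomal protein genes to 1.17 for hemoglobin genes along the horizontal axis and from -0.22 to 0.32 along the vertical one, and the 2 axes are not drawn to the same scale.

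Of the 10 higher genes with the smallest unadjusted p, which were ranked on this contrast, 8 had all 4 libraries with AKG above all 4 without (1.66% of all genes). Ubtd2, a ubiquitin domain protein (chr11:32455370-32516687, GRCm38), stood at 5.83 and 5.54 FPKM in WT, 6.26 and 6.75 in α-Syn, 7.24 and 7.58 in AKG, and 7.93 and 8.34 in α-Syn_AKG. Every library with AKG lay above every library without, and the mean was 7.78 ± 0.47 FPKM (SD, n = 4) with AKG against 6.10 ± 0.53 (SD, n = 4) without. Its log2 difference was 0.31 ± 0.07 (SE), 0.33 without the vector and 0.28 with it. Ptk2b, the calcium-dependent tyrosine kinase PYK2 (chr14:66153257-66281052), had the largest difference of the 10, at 0.73 ± 0.22 on the log2 scale. It stood at 4.46 and 8.85 FPKM in WT, 11.6 and 11.9 in α-Syn, 13.9 and 16.1 in AKG, and 15.9 and 14.2 in α-Syn_AKG. The 4 libraries with AKG were again the 4 highest, while WT library 1 lay far below the rest, and without it the difference was 0.48. Heg1, a membrane receptor of the endothelium and heart, stood at 2.13 and 2.59 FPKM in WT, 3.74 and 3.42 in α-Syn, 4.2 and 4.44 in AKG, and 4.04 and 4.62 in α-Syn_AKG. Its log2 difference was 0.44 ± 0.11, or 0.36 without WT library 1. Nfix, a transcription factor of neural progenitors and glia, stood at 8.35 ± 1.99 FPKM without AKG and 11.2 ± 1.19 with it, and its groups overlapped between α-Syn and α-Syn_AKG. The others were Pcdhga7, a clustered protocadherin (0.38 ± 0.10), Fbrs (0.40 ± 0.11), Ap5b1, a subunit of an endosomal adaptor complex (0.31 ± 0.09), Net1, an exchange factor for small GTPases (0.30 ± 0.08), Tmem203 (0.29 ± 0.09) and Cited4 (0.25 ± 0.08). The adjusted p was 0.78 in limma for each of the 10.

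Alb, which encodes serum albumin and is made chiefly in the liver, had the smallest unadjusted p of all genes (7.07e-05, adjusted p = 0.78 in limma). It was a low gene, counted with 10 to 105 reads per library. Alb (chr5:90460897-90476602) stood at 1.53 and 0.952 FPKM in WT, 2.43 and 2.54 in α-Syn, 0.232 and 0.277 in AKG, and 0.703 and 1.03 in α-Syn_AKG. Both libraries with AKG lay below both without at each vector level, and WT library 2 lay just below the higher α-Syn_AKG library. The mean with AKG was 0.301 times the mean without, and the log2 difference was -0.87 ± 0.11 (SE), -0.82 without the vector, -0.91 with it and -0.80 without WT library 1. Where in the tissue these reads came from was not tested.

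The other lower genes with the smallest unadjusted p came from several functions. Qpct, the glutaminyl cyclase that forms pyroglutamate at the start of peptides, was at 11.9 ± 0.79 FPKM (SD, n = 4) without AKG and 9.57 ± 0.50 with it, and Ppil1, a spliceosomal prolyl isomerase, at 9.39 ± 0.54 and 7.82 ± 0.48. Neither gene's groups overlapped. Pf4, a chemokine of platelets and some macrophages, was at 2.66 and 2.04 FPKM in WT and between 0.50 and 1.06 FPKM in the other 6 libraries, and its difference of -0.54 ± 0.14 was -0.81 without the vector and -0.28 with it. Tceal1, Arxes2 and Nbdy, all on the X chromosome, had log2 differences of -0.33 ± 0.08, -0.33 ± 0.09 and -0.29 ± 0.08, with no overlap between the sides. Srp54b, a copy of the gene for a signal recognition particle subunit, had -1.04 ± 0.22, and Rps13, a ribosomal protein gene, -0.78 ± 0.21. Both belong to families with near-identical copies, and the sources used here do not say how reads were divided among copies, so these 2 values are uncertain.

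**Figure D2:**
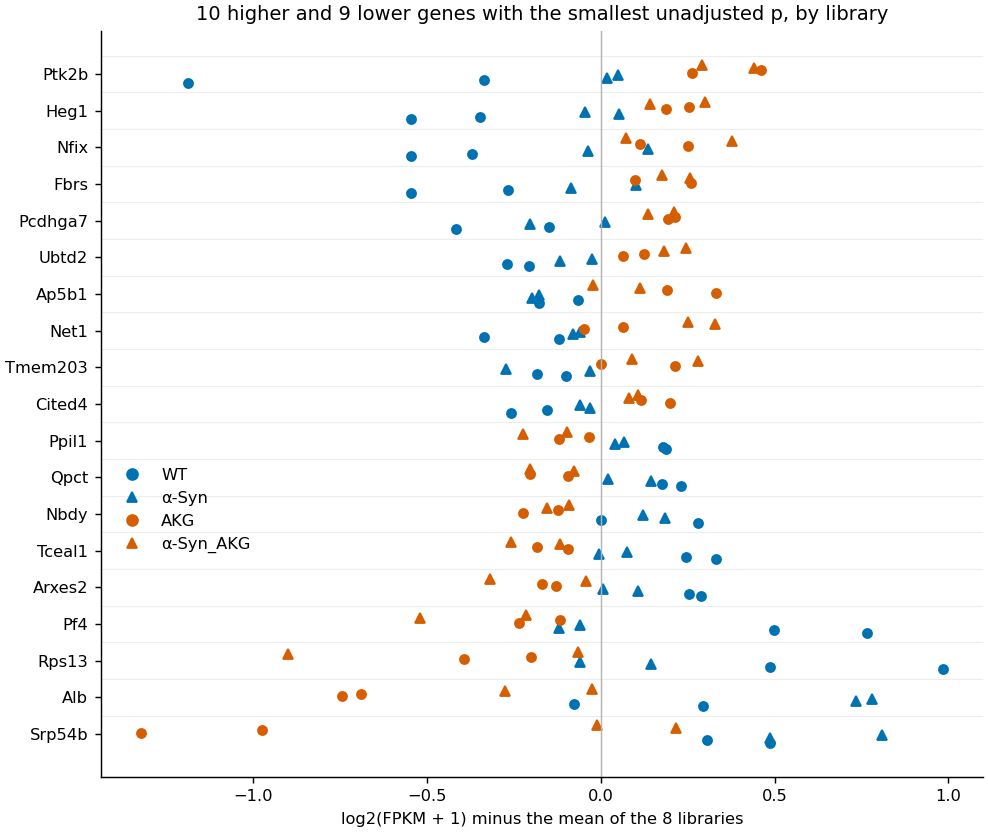
log2(FPKM + 1) of each library minus the gene's mean over the 8 libraries, for 10 higher and 9 lower genes with the smallest unadjusted p; blue marks libraries without AKG, orange libraries with AKG, circles no vector and triangles the vector. The genes were ranked on this contrast, so the split of colours is a description, and the WT circles lie farthest out for Ptk2b, Heg1, Nfix, Fbrs and Pf4.

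A run of 3 neighbouring mitochondrial tRNA genes was higher with AKG, 2 of them separated at both vector levels, and it was picked after the values were seen. mt-Th, mt-Ts2 and mt-Tl2 encode the tRNAs for histidine, for serine with codons AGY, and for leucine with codons CUN. They lie next to each other on the mitochondrial genome (MT 11546-11612, 11613-11671 and 11671-11741, GRCm38, plus strand), between mt-Nd4 (MT 10167-11544) and mt-Nd5 (MT 11742-13565), which encode subunits of respiratory complex I. Mitochondrial RNA is transcribed as long precursors and cut at the tRNAs. Their sequences, from the GENCODE M21 transcripts, are shown because they are shorter than a usual sequencing fragment, so that reads assigned to them can run into a neighbour. Capitals mark the anticodon.
mt-Th: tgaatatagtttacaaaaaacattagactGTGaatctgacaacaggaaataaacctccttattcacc
mt-Ts2: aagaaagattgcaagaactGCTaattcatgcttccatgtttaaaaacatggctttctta
mt-Tl2: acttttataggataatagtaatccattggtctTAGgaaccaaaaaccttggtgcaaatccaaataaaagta

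The 3 genes are 67, 59 and 71 bases long and were counted with 15 to 136 reads. mt-Tl2 stood at 21.1 and 23.8 FPKM in WT, 50.4 and 45.6 in α-Syn, 80.3 and 61.5 in AKG, and 98.6 and 66.9 in α-Syn_AKG. All 4 libraries with AKG lay above all 4 without, and the α-Syn libraries lay between the WT libraries and those with AKG. Its log2 difference was 1.18 ± 0.21 (SE), 1.61 without the vector, 0.75 with it and 1.06 without WT library 1. mt-Th stood at 17.8 and 12.2 FPKM in WT, 21.0 and 20.2 in α-Syn, 35.6 and 26.4 in AKG, and 37.6 and 24.2 in α-Syn_AKG, a log2 difference of 0.77 ± 0.19 with no overlap. mt-Ts2, the middle gene, had 0.54 ± 0.19, but with the vector its groups overlapped (30.3 and 37.9 FPKM in α-Syn, 36.6 and 35.1 in α-Syn_AKG). The protein-coding genes on either side differed little: mt-Nd4 by -0.11 ± 0.13 and mt-Nd5 by 0.03 ± 0.13 (-0.04 and 0.05 without WT library 1). Of the 18 mitochondrial tRNA genes tested, 9 were higher and 9 lower, with a median of -0.05 (-0.03 without WT library 1). At an unadjusted p under 0.05, 4 were higher (22.2%, against 1.93% of all genes) and 2 lower (11.1%, against 2.15%), and 2 were separated higher (11.1%, against 2.85%) and 1 lower (5.56%, against 3.22%). The fourth of the higher genes, mt-Ti, for isoleucine (MT 3706-3774), had the largest difference of the class, 1.21 ± 0.47, but rested on 1 to 18 reads per library, and its sides overlapped (0.854 to 9.46 FPKM without AKG, 8.10 to 15.4 with it). Without α-Syn library 2 its difference was 0.70. The gene separated lower was mt-Ta, for alanine (MT 5018-5086), at 14.5 ± 2.36 FPKM (SD, n = 4) without AKG and 9.75 ± 0.87 with it, a difference of -0.52 ± 0.12, and counted with 10 to 21 reads. None of these tRNA genes passed limma's adjusted threshold (adjusted p = 0.78 for each of the 5 named).

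**Figure D3:**
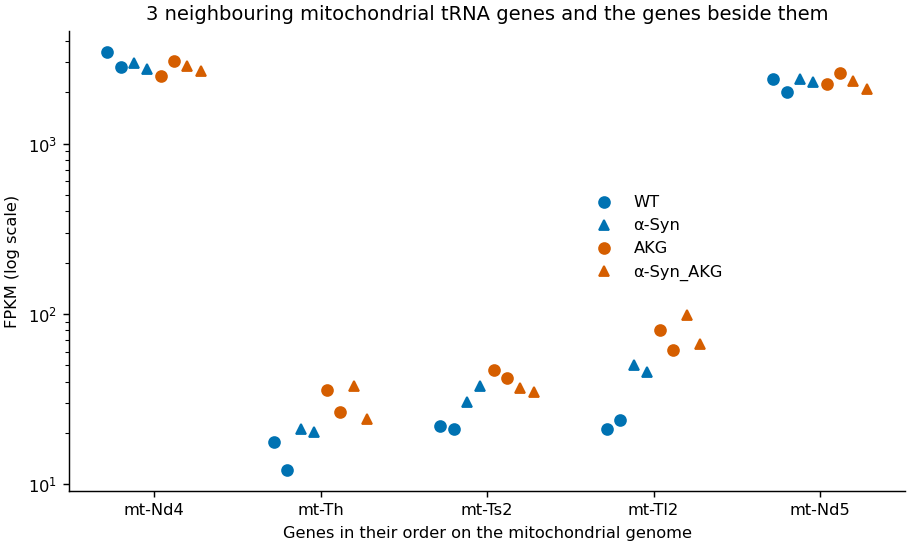
FPKM on a log axis of mt-Nd4, mt-Th, mt-Ts2, mt-Tl2 and mt-Nd5 in their order on the mitochondrial genome, 1 point per library; blue marks libraries without AKG, orange with AKG, circles no vector and triangles the vector. For mt-Tl2 the libraries with AKG sit between 61.5 and 98.6 FPKM and those without between 21.1 and 50.4, while the points of mt-Nd4 and mt-Nd5 overlap.

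Dopamine neuron genes had AKG differences of opposite sign at the 2 vector levels. Of the 16 tested, 14 were lower on average and 2 higher (median log2 difference -0.22, against 0.004 over all genes). None was separated at both vector levels, where 2.85% of all genes were separated higher and 3.22% lower. At such shares a list of 16 can readily hold none. AKG minus WT had a median of -0.46, with 15 of 16 lower, and α-Syn_AKG minus α-Syn a median of 0.10, with 11 of 16 higher. Th, tyrosine hydroxylase, the rate-limiting enzyme of dopamine synthesis, stood at 38.8 and 38.8 FPKM in WT, 12.6 and 16.1 in α-Syn, 10.7 and 10.4 in AKG, and 14.6 and 16.6 in α-Syn_AKG. Only the WT libraries were high, and the other 6 lay close together. Its AKG difference was -0.84 ± 0.35 on average (adjusted p = 0.78 in limma), -1.79 without the vector and 0.12 with it, and the interaction was 1.90 (adjusted p = 0.276 in limma). Slc6a3, the dopamine transporter, stood at 24.1 and 28.5 FPKM in WT, 1.43 and 3.87 in α-Syn, 0.801 and 0.615 in AKG, and 4.99 and 11.9 in α-Syn_AKG. Both α-Syn_AKG libraries lay above both α-Syn libraries and both AKG libraries below all others. The 2 differences were -4.0 and 1.36, their average -1.32 ± 1.0 (-0.83 without WT library 1, and -2.08 to -0.74 over all single libraries left out), and the interaction 5.35 (adjusted p = 0.283 in limma).

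Slc18a2, the vesicular monoamine transporter, was the dopamine gene with the smallest unadjusted p (0.0118). It stood at 10.8 and 11.3 FPKM in WT, 7.28 and 8.30 in α-Syn, 5.74 and 4.41 in AKG, and 7.40 and 6.35 in α-Syn_AKG, with a log2 difference of -0.58 ± 0.18, -1.0 without the vector and -0.16 with it. Its groups overlapped only at the vector level. Ddc, which converts L-DOPA to dopamine, had -0.53 ± 0.28, or -0.30 without WT library 1, with -1.23 and 0.17 at the 2 levels. In bulk tissue, fewer dopamine neurons and less RNA per dopamine neuron cannot be told apart, and the share of nigra in each dissection was not tested. A fit of the WT and AKG libraries alone called 1 gene, Slc6a3, lower (adjusted p = 0.0412 in limma). With library weights, which gave WT library 1 a weight of 0.145, the interaction of Th had an adjusted p of 0.0457 in limma and that of Slc6a3 0.0509. The weights were estimated from the additive fit, which has no interaction term, so these values are not a separate test of the interaction.

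**Figure D4:**
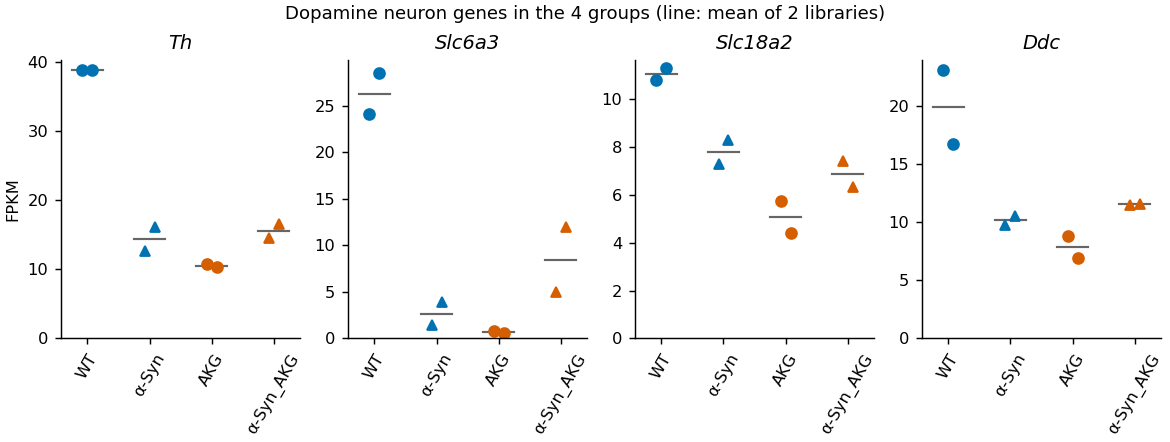
FPKM of Th, Slc6a3, Slc18a2 and Ddc in the 4 groups, 1 point per library, with a line at the mean of each pair; each panel has its own axis from 0. WT is the highest group and AKG the lowest in all 4 panels, and the α-Syn_AKG libraries of Slc6a3 (4.99 and 11.9 FPKM) lie above the α-Syn libraries (1.43 and 3.87 FPKM).

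Genes that make or use AKG in the TCA cycle differed little. Of 39 tested, 13 were higher and 26 lower, with a median of -0.04 (-0.02 without WT library 1). Among them 1 was separated higher (against 2.85% of all genes) and 2 lower (against 3.22%). Ogdhl, a brain form of the AKG dehydrogenase subunit, was the gene separated higher: 32.2 and 40.3 FPKM in WT, 42.5 and 39.4 in α-Syn, 43.1 and 44.7 in AKG, and 44.2 and 43.1 in α-Syn_AKG. All 4 libraries with AKG lay above all 4 without, with a log2 difference of 0.18 ± 0.09 (unadjusted p = 0.0844), or 0.10 without WT library 1. Those separated lower were Idh1, the cytosolic isocitrate dehydrogenase (-0.12 ± 0.07, or -0.08 without WT library 1), and D2hgdh, which turns D-2-hydroxyglutarate back into AKG (-0.18 ± 0.08). D2hgdh was at 3.54 ± 0.34 FPKM (SD, n = 4) without AKG and 2.99 ± 0.17 with it. Ogdh was at 40.6 FPKM in WT library 1 and 53.7 to 58.1 FPKM in the other 7 libraries, and its difference of 0.12 ± 0.11 was 0.01 without that library. Idh2, the mitochondrial enzyme, was at 43.7 FPKM in WT library 1 and 20.8 to 24.7 in the others, so that its difference of -0.22 ± 0.21 became 0.03 without it. Glud1, glutamate dehydrogenase, differed by -0.07 ± 0.07.

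The AKG-dependent dioxygenases showed no common direction. Of 60 tested, 36 were higher and 24 lower (median 0.03, or -0.01 with the trend in gene length removed). Among them 1 was separated higher, Hif1an (against 2.85% of all genes), and 2 lower, Bbox1 and Phyh (against 3.22%). Bbox1, the enzyme of the last step of carnitine synthesis, stood at 6.08 and 3.08 FPKM in WT, 3.54 and 3.13 in α-Syn, 2.64 and 2.94 in AKG, and 2.63 and 2.45 in α-Syn_AKG. All libraries with AKG lay below all without, and WT library 1 was far above the rest. The log2 difference was -0.40 ± 0.16 (unadjusted p = 0.042), or -0.22 without WT library 1. Phyh, the peroxisomal enzyme that starts the breakdown of phytanic acid, was at 62.5 ± 3.89 FPKM without AKG and 55.3 ± 1.17 with it, also with no overlap, a log2 difference of -0.17 ± 0.07. Tet3, a DNA demethylase, had 0.28 ± 0.15, or 0.16 without WT library 1, with 0.57 without the vector and -0.02 with it.

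Genes of mTOR signalling and autophagy were about evenly split between higher and lower, and more lysosome genes were lower. Of 49 mTOR and AMPK genes 24 were higher and 25 lower (median -0.002, or 0.006 without WT library 1). Of these, 0 were separated higher and 2 lower (against 2.85% and 3.22% of all genes). Of 50 autophagy genes 27 were higher and 23 lower (median 0.02, or -0.02 with the trend in gene length removed and 0.01 without WT library 1). Among them 1 was separated higher and 3 lower, against the same shares of all genes. Ambra1, a scaffold that starts autophagy, was the gene separated higher, at 9.91 ± 1.19 FPKM (SD, n = 4) without AKG and 11.6 ± 0.18 with it, and its log2 difference of 0.22 ± 0.09 was 0.14 without WT library 1. Fundc1, a receptor for the autophagy of mitochondria and an X-linked gene, stood at 35.3 and 34.3 FPKM in WT, 31.7 and 29.99 in α-Syn, 28.8 and 30.2 in AKG, and 28.2 and 27.7 in α-Syn_AKG, a difference of -0.18 ± 0.07. The other genes separated lower were Wdr45 and Snap29. Sqstm1, the autophagy receptor p62, differed by -0.11 ± 0.09 (-0.08 without WT library 1), with -0.27 without the vector and 0.04 with it. Map1lc3b, which encodes LC3B, differed by -0.06 ± 0.09. Mtor was at 6.02 FPKM in WT library 1 and 9.08 to 12.6 FPKM in the others, and its difference of 0.29 ± 0.17 was 0.12 without that library. Lysosome genes were lower in 31 of 49 (median -0.03), with 37 of 49 lower without the vector and 38 of 49 higher with it, and without WT library 1 the average had a median of 0.01, with 28 of 49 higher.

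Cholesterol and fatty acid synthesis genes were the metabolic list with the most members separated lower. Of 33 tested, 4 were separated lower (Msmo1, Fdft1, Nsdhl and Acat2) and 0 higher. The shares of all genes were 3.22% separated lower and 2.85% higher. On average 21 of 33 were lower, with a median of -0.02 (against 0.004 over all genes), and without WT library 1 the median was -0.08, with 8 of 33 higher. Msmo1, a sterol demethylase (chr8:64718139-64733792), stood at 17.4 and 18.8 FPKM in WT, 16.6 and 17.3 in α-Syn, 14.3 and 15.6 in AKG, and 14.8 and 12.7 in α-Syn_AKG. Fdft1, squalene synthase (chr14:63145150-63179578), stood at 30.9 and 33.8, 29.9 and 29.9, 26.1 and 27.7, and 26.0 and 26.6 FPKM in the same groups. Neither gene's sides overlapped, and the log2 differences were -0.27 ± 0.08 and -0.22 ± 0.07. Without and with the vector they were -0.26 and -0.29 for Msmo1, and -0.26 and -0.18 for Fdft1. Being separated at both levels already fixes the shared sign. Without WT library 1 the differences were -0.30 for Msmo1 and -0.23 for Fdft1. Nsdhl, a sterol dehydrogenase on the X chromosome, was at 10.03 ± 0.60 FPKM (SD, n = 4) without AKG and 8.47 ± 0.35 with it, -0.22 ± 0.07 with no overlap. Mvd, of the mevalonate pathway, had -0.22 ± 0.09, with overlap between α-Syn and α-Syn_AKG. At the vector level the list was lower as a whole, 28 of 33 genes with a median of -0.09, whereas without the vector 18 of 33 were higher. None passed limma's adjusted threshold (adjusted p = 0.78 for each of the 4 with values).

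Polyunsaturated fatty acid genes were split, 17 of 35 higher and 18 lower (median -0.003, or -0.008 without WT library 1). Fads1 and Fads2, the desaturases, differed by -0.003 ± 0.08 (-0.01 without WT library 1) and -0.12 ± 0.09. Fabp7, the brain fatty acid binding protein of astrocytes and progenitors, which carries docosahexaenoic acid, stood at 31.2 and 38.6 FPKM in WT, 32.5 and 20.7 in α-Syn, 25.5 and 28.2 in AKG, and 14.7 and 20.2 in α-Syn_AKG. Libraries with AKG lay below those without at both vector levels, though the AKG group overlapped the α-Syn group. The log2 difference was -0.46 ± 0.17, and -0.54 without WT library 1.

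Genes of synapses were higher and genes of ribosomes and the respiratory chain lower with AKG, and these lists rested on the WT libraries. Of 41 postsynaptic genes 39 were higher (median 0.32) and of 44 presynaptic genes 41 (median 0.24). Of 82 ribosomal protein genes 79 were lower (median -0.25) and of 78 nuclear-encoded respiratory chain genes 70 (median -0.13). Separated at both vector levels were 3 postsynaptic and 1 presynaptic gene higher, 2 ribosomal protein genes lower, and 1 respiratory chain gene higher. Over all genes 2.85% were separated higher and 3.22% lower. For postsynaptic, presynaptic, ribosomal and respiratory genes the median was 0.61, 0.49, -0.62 and -0.39 without the vector, and 0.03, 0.01, 0.11 and 0.11 with it. Without WT library 1 the averages were 0.16, 0.06, -0.06 and -0.02. The mean level of postsynaptic genes, on the log2(FPKM + 1) scale, was 2.82 in WT library 1, 3.42 in WT library 2, and 3.64 to 3.80 in the other 6, and that of ribosomal protein genes was 7.44, 6.78 and 6.37 to 6.78. The WT libraries stood at one end of both lists and WT library 1 outermost.

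Gene length moved with these differences. Across the tested genes, the Spearman correlation of the AKG difference with gene length was 0.424 on average, 0.532 without the vector and -0.196 with it. It was 0.154 without WT library 1. These are descriptions over 13716 genes from the same libraries. With a smooth trend in gene length removed from each library, the medians of the postsynaptic, presynaptic, ribosomal and respiratory lists were 0.19, 0.15, -0.18 and -0.05, each nearer to 0 than the 0.32, 0.24, -0.25 and -0.13 of the values as deposited.

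**Figure D5:**
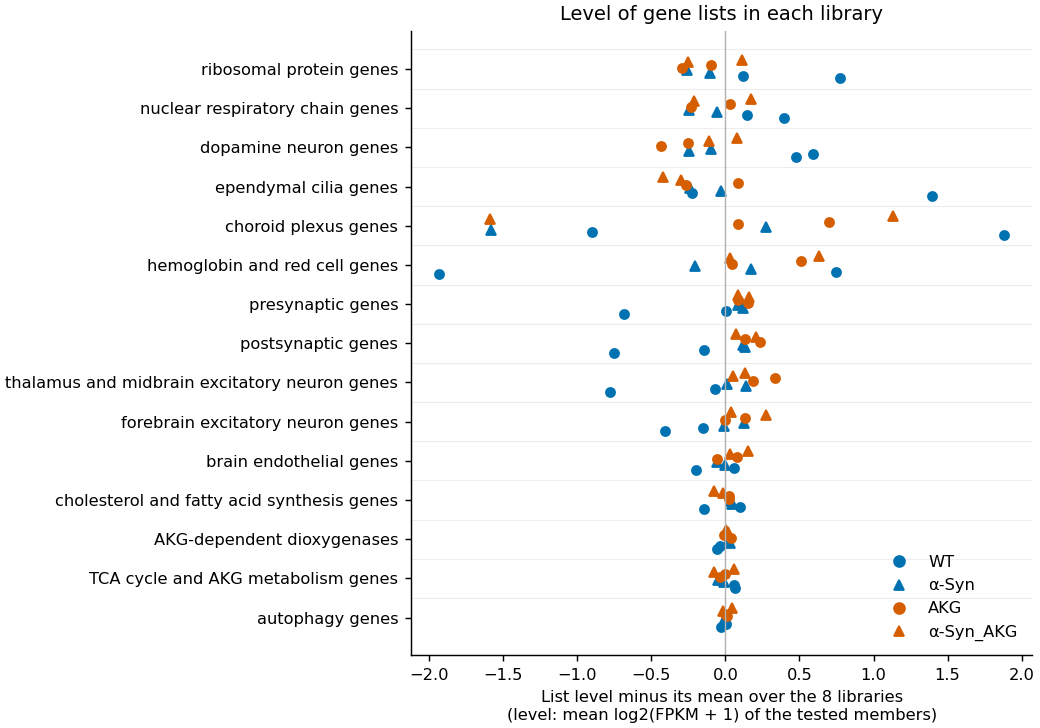
Level of 15 gene lists in each library, as the mean log2(FPKM + 1) of the tested members minus the list's mean over the 8 libraries; blue marks libraries without AKG, orange with AKG, circles no vector and triangles the vector. Blue and orange overlap in every list, and WT library 1 is the outermost blue circle for ribosomal, respiratory chain, ependymal, choroid plexus, hemoglobin and synaptic genes.

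Neuron markers other than those of dopamine neurons were higher in part. Of 15 forebrain excitatory neuron genes 11 were higher (median 0.32, or 0.11 without WT library 1), 4 were separated higher (Slc17a7, Cux2, Mef2c and Itpka, against 2.85% of all genes) and 1 lower (Lmo3, against 3.22%). The median of this list was 0.31 without the vector and 0.09 with it. Slc17a7, the vesicular glutamate transporter VGLUT1 of cortical and hippocampal projection neurons, stood at 14.9 and 22.1 FPKM in WT, 31.6 and 25.7 in α-Syn, 28.7 and 46.0 in AKG, and 34.8 and 37.0 in α-Syn_AKG. Both pairs with AKG lay above their partners without it, but AKG library 1 lay below α-Syn library 1. The difference was 0.64 ± 0.21 (0.47 without WT library 1). Mef2c, a transcription factor of excitatory neurons, was at 1.52 and 2.74 FPKM in WT, 3.76 and 3.35 in α-Syn, and 4.04 to 4.13 FPKM in the 4 libraries with AKG, and its difference of 0.44 ± 0.16 was 0.27 without WT library 1. Lmo3 was at 8.83 ± 0.45 FPKM without AKG and 7.47 ± 0.77 with it. Of 17 thalamus and midbrain excitatory neuron genes 13 were higher (median 0.43, or 0.14 without WT library 1). The median was 0.83 without the vector, with 15 of 17 higher, and 0.03 with it, with 10 of 17 higher. Among them 1 was separated higher and 1 lower (against 2.85% and 3.22% of all genes). Prkcd, a protein kinase C of thalamic relay neurons, had the largest difference, at 14.96 and 45.02 FPKM in WT, 88.0 and 54.6 in α-Syn, 97.1 and 91.5 in AKG, and 72.3 and 100.4 in α-Syn_AKG. Its groups overlapped with the vector. Its difference was 1.05 ± 0.42, or 0.60 without WT library 1. How much of each dissection was thalamus or cortex was not tested.

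Genes of microglial activation, reactive astrocytes and MHC class I were lower on average, and these differences were smaller or of the other sign with the vector. Of 18 genes of disease-associated microglia 16 were lower (median -0.11), of 20 reactive astrocyte genes 17 (median -0.14, or 0.02 with library weights) and of 19 MHC class I genes 17 (median -0.16). Without the vector the medians were -0.39, -0.27 and -0.28, with it 0.13, 0.001 and -0.04, and without WT library 1 the averages were 0.01, 0.02 and -0.08. Of the 3 lists together, 1 reactive astrocyte gene (Amigo2) and 1 MHC class I gene (Tapbp) were separated lower and none higher. Over all genes 3.22% were separated lower and 2.85% higher. Gfap, the intermediate filament of reactive astrocytes, stood at 156.7 and 75.7 FPKM in WT, 45.3 and 44.2 in α-Syn, 39.8 and 45.7 in AKG, and 51.2 and 66.3 in α-Syn_AKG. Its WT libraries were the 2 highest and WT library 1 alone was far above the rest. The difference was -0.48 ± 0.37, with -1.33 and 0.37 at the 2 levels and -0.10 without WT library 1. Cd68, a lysosomal protein of phagocytes, differed by -0.08 ± 0.16 (0.01 without WT library 1), with -0.45 and 0.29 at the 2 levels. Genes of the oligodendrocyte line did not go the same way. Oligodendrocyte precursor genes were higher in 19 of 21 (median 0.11, or 0.003 without WT library 1 and -0.01 with library weights). Myelin genes were higher in 16 of 26 on average (median 0.04, or -0.03 without WT library 1 and -0.16 with library weights). They were lower in 20 of 26 without the vector (median -0.16) and higher in 25 of 26 with it (median 0.23).

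Endothelial genes were higher in 15 of 22 (median 0.12, or 0.04 without WT library 1). Among them 3 were separated higher (Abcb1a, Slco1a4 and Eng, against 2.85% of all genes) and 0 lower (against 3.22%). Abcb1a, the drug efflux pump P-glycoprotein of the blood-brain barrier, stood at 4.77 and 7.08 FPKM in WT, 8.40 and 8.62 in α-Syn, 8.36 and 8.83 in AKG, and 10.4 and 8.69 in α-Syn_AKG. Its difference was 0.32 ± 0.13, or 0.19 without WT library 1, and the AKG and α-Syn groups overlapped. Slco1a4, an organic anion transporter of the same barrier, had 0.16 ± 0.07. Vwf, von Willebrand factor, was at 2.14 ± 0.52 FPKM (SD, n = 4) without AKG and 3.13 ± 0.33 with it, with a log2 difference of 0.41 ± 0.13 and 0.53 without WT library 1, but WT library 1 (2.85 FPKM) lay above AKG library 2 (2.74).

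Blood, choroid plexus and ependymal genes varied widely between the libraries of a group. Hbb-bs, an adult beta-globin, was at 5.53 FPKM in WT library 1 and 85.2 to 212.4 FPKM in the others, and the median of 7 hemoglobin and red cell genes was 0.76, or 0.02 without that library and -0.03 with library weights. Ttr, transthyretin, the leading product of the choroid plexus, was at 8778 and 435.1 FPKM in WT, 44.0 and 1959 in α-Syn, 1334 and 2466 in AKG, and 53.4 and 4857 in α-Syn_AKG. High and low libraries occurred within 3 of the 4 pairs, and the median of 17 choroid plexus genes was 0.11. It was 0.77 without WT library 1, -0.39 without WT library 2, -0.23 without α-Syn library 1 and -0.43 without α-Syn_AKG library 2, so its sign depended on single libraries. All 13 ependymal cilia genes were lower (median -0.46), with a mean level of 4.54 in WT library 1 and 2.72 to 3.23 in the other 7, and without it the median was -0.07. The part of these tissues in the other results was not tested.

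Circadian clock genes were higher in 22 of 25 (median 0.09, or 0.04 without WT library 1). Separated higher were 3, Usp2 and Per1 among them (against 2.85% of all genes), and 0 were separated lower (against 3.22%). The list's median was 0.18 without the vector, with 21 of 25 higher, and 0.05 with it, with 16 of 25 higher. Its mean level was 3.03 in WT library 1 and 3.26 to 3.46 in the others. Usp2, a deubiquitinase with a strong daily rhythm, stood at 7.38 and 7.55 FPKM in WT, 7.49 and 8.69 in α-Syn, 8.72 and 9.25 in AKG, and 9.19 and 9.13 in α-Syn_AKG. No library with AKG overlapped those without, and the difference was 0.20 ± 0.07. Per1, a repressor of the clock, was at 7.09 ± 0.87 FPKM (SD, n = 4) without AKG and 8.89 ± 1.56 with it, 0.28 ± 0.10, with similar values at both vector levels (0.30 and 0.27). Per1 is also induced by glucocorticoids and by neuronal activity, and it belongs to the lists of both. The medians of those lists were -0.02 (0.05 without WT library 1) and 0.01. Among the libraries with AKG, the level of glucocorticoid response genes was highest in α-Syn_AKG library 1 (3.44, the next 3.10). Without that library the Per1 difference was 0.21. Whether either inducer had a part in the Per1 difference was not tested. The sources used here do not give the time of day at which tissue was taken.

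Among stress response genes, single members were separated lower. Of 41 genes of the unfolded protein and integrated stress responses 18 were higher and 23 lower (median -0.02), with 1 separated higher (Edem1, against 2.85% of all genes) and 4 lower (Nupr1, Pdia6, Hspa5 and Creld2, against 3.22%). Nupr1, a stress-induced nuclear protein, was at 1.36 ± 0.33 FPKM without AKG and 0.867 ± 0.15 with it, with no overlap, and had 31 to 87 reads per library. Pdia6, a disulfide isomerase of the endoplasmic reticulum, had -0.19 ± 0.08. Of 36 NRF2 and antioxidant genes 28 were lower (median -0.12), but without WT library 1 the median was 0.003.

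X-linked genes were more often separated lower than the genes of any single autosome, a pattern noticed after the values were seen. Of 474 X-linked genes tested, 36 were separated lower (7.59%, against 3.22% of all genes) and 7 higher (1.48%, against 2.85%). Over the 19 autosomes the share separated lower ranged from 1.59% to 4.11% and the share separated higher from 1.82% to 4.81%. Without WT library 1 the share of X-linked genes was 11% (4.99% of all genes), and after a smooth trend in gene length was removed it was 6.54% (4.21% of all genes). The size was small: the median log2 difference of X-linked genes was -0.03, and their mean level, 3.36, 3.37, 3.36 and 3.4 in the 4 libraries without AKG and 3.35, 3.33, 3.37 and 3.32 in those with it, overlapped between the sides. Igsf1, an X-linked membrane glycoprotein (chrX:49782536-49797749), stood at 16.8 and 15.1 FPKM in WT, 14.2 and 14.7 in α-Syn, 12.8 and 9.81 in AKG, and 13.1 and 11.6 in α-Syn_AKG. Its sides did not overlap, and the difference was -0.35 ± 0.11.

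By gene type, pseudogenes were separated lower in 37 of 600 (6.17%, against 3.22% of all genes) and higher in 19 (3.17%, against 2.85%), and genes for miRNAs higher in 5 of 49 (10.2%) and lower in 0. Pseudogenes share reads with their parent genes, and miRNA genes are very short and often lie inside host genes, so both counts are uncertain. Gapdh, a glycolytic enzyme that is abundant in every tissue and has many pseudogenes, was listed at only 1.44 to 2.25 FPKM in 6 libraries and at 32.0 in AKG library 2 and 69.6 in α-Syn_AKG library 2. Its difference of 2.19 ± 1.04 rested on those 2 libraries, and the sources used here do not say how reads matching several places were counted.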

How the data were processed

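Per the labels' protocols, total RNA went through a column kit and then a SMARTer mRNA-seq kit. Per the submitters' processing notes the builds are GRCm38 and mm10. The sources used here do not give the aligner, counter or strand setting. Per the file headers, the authors' table holds FPKM per gene and library. Multiplied by gene length, 100% of values were whole multiples of 1 step (within 0.01 of a read), so reads were recovered, 16544190 to 19125423 per library. Coordinates and symbols are those of the deposited table.

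FPKM of genes whose mean was 1 or more were turned into log2(FPKM + 1), on which low genes differ by less than their true fold. The model was limma (version 3.58.1, R 4.3.3; lmFit with AKG and vector as terms, eBayes with a trend, two-sided, 5 residual degrees of freedom, Benjamini-Hochberg over 13716 genes, threshold 0.05). The interaction came from a fit with 1 mean per group. limma's voom on recovered reads was an alternative, with other filters, pseudocounts, scalings, weights, length-trend removal (spline with 5 degrees of freedom) and each library left out in turn, where the remaining library of its group is taken to have the spread of the other groups. Some genes that the rule names are not reported here. Named genes are the 10 in each direction of smallest unadjusted p (leaving aside Gm and Rik genes, pseudogenes and genes under 300 bases), up to 4 members per list with the smallest p, and fixed genes of dopamine neurons, glia, AKG metabolism, mTOR, autophagy and fatty acid desaturation. The mitochondrial tRNA genes and their neighbours, Gapdh, Igsf1, the X-linked genes and gene types were picked after values were seen, and list members named without values are those separated at both levels. The comparison, the lists and the rule were chosen with earlier results of these data known, so lists are described and not tested. The test of the AKG term was tried on simulated data with independent genes and no vector effect, interaction or outlying library. Those trials therefore do not cover such features of the real libraries. matplotlib 3.10.9 under Python 3.11.15 drew the figures.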

Additional observations from a re-analysis of the deposited data

Results flagged for a closer look

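In 10 of 220 groups of 4 libraries examined (with or without AKG, for named genes and list levels), 1 library lay far from the other 3; about 5% of groups do so by chance, and each group mixes both vector levels. WT library 1 was that library in 4 of the 10. Among the libraries without AKG it was highest for Idh2 (43.7 FPKM, the next 23.04), for the mean log2(FPKM + 1) level of ependymal cilia genes (4.54, the next 3.12) and of reactive astrocyte genes (3.32, the next 2.67), and lowest for presynaptic genes (4.47, the next 5.16). Among the libraries without AKG, WT library 2 was highest for Ap5b1 (1.71 FPKM, the next 1.51), and α-Syn library 2 was lowest for Map1lc3b (28.2 FPKM, the next 32.7) and highest for Usp2 (8.69 FPKM, the next 7.55). Among the libraries with AKG, AKG library 2 was lowest for Lmo3 (6.31 FPKM, the next 7.79), AKG library 1 was highest for Ambra1 (11.9 FPKM, the next 11.5), and α-Syn_AKG library 1 was highest for the level of glucocorticoid response genes (3.44, the next 3.10).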

How the results depend on the processing

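The count of genes called with AKG was 0 in both directions under the alternatives run, except that a fit of AKG and WT libraries alone called 1 lower (Slc6a3). The interaction called 0 genes except 2 with library weights (Th and Gm43587), and 0 to 1369 when single libraries were left out, the high end without WT library 2.

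At an unadjusted p under 0.05, genes higher numbered 555 with no filter on low values, 111 with a minimum of 5 FPKM, 717 with library weights, 529 with 1 mean per group and 703 for AKG against WT alone, and 91 to 652 without single libraries. Genes lower numbered 631 with no filter, 165 with the minimum of 5 FPKM, 746 with weights, 475 for AKG against WT alone, 105 for α-Syn_AKG against α-Syn alone, and 133 to 594 without single libraries. The interaction had 1700 with no filter, 602 with the minimum of 5 FPKM, and 286 to 4564 without single libraries. With no filter 628 genes were separated higher and 731 lower, and with the minimum of 5 FPKM 207 and 269. Leaving out a library loosens this criterion, and gave 530 to 1766 higher and 603 to 1491 lower. The filters change the number of genes tested; the cause of the other shifts was not tested.

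Same-numbered libraries do not come from a stated shared batch, and the correlations of their deviations ran from -0.322 to 0.34 over 6 pairs of groups, so the numbers were not taken as pairing. With the replicate number as a block, the AKG term called 0 genes, with 200 higher and 249 lower at an unadjusted p under 0.05, and the interaction had 577 at that threshold.

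Of 1568 log2 differences of 69 genes under these alternatives, 31 had the other sign, and 54 genes never did. For α-Syn_AKG against α-Syn alone these were Th 0.12, Slc6a3 1.36, Ddc 0.17, Ogdh -0.0435, Idh2 0.0975, Tet3 -0.0214, Sqstm1 0.0389, Mtor -0.0246, Gfap 0.37, Cd68 0.29 and mt-Nd5 -0.0867, and for AKG against WT alone Ttr -0.11 and Fads1 0.0109. Fads1 was 0.0536 with quantile normalization, 0.0128 with weights, 0.00951 with the length trend removed, and -0.0352 to 0.0324 without single libraries. Cd68 was 0.0235 with the length trend removed, Hbb-bs -0.0933 with weights and mt-Nd4 0.0270 with quantile normalization. Without single libraries, 12 of the 31 occurred, within ranges of -0.33 to 0.0260 for Idh2, -0.22 to 0.01001 for Cd68, -1.04 to 1.55 for Ttr, -0.12 to 1.89 for Hbb-bs and -0.0453 to 0.0853 for mt-Nd5.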
